A study of Mus musculus with 9 samples.

Results

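Choroid plexus epithelial cells of the mouse TME were examined in 9 Drop-seq samples, each a table of the unique molecular identifiers (UMIs) counted per gene and cell barcode. A barcode was taken as a member when it held at least 200 detected genes, at most 30% mitochondrial UMIs, UMIs of at least 3 of Folr1, Kl, Clic6, Kcnj13, Aqp1, Enpp2, 1500015O10Rik and Ttr, at least 10 UMIs of Ttr, and UMIs of at most 1 of Csf1r, Cldn5, Ccdc153 and Tmem212, which mark myeloid, endothelial and ciliated ependymal cells. In all, 319 of 15391 kept barcodes met this rule (2.07%). Members were thus chosen by the UMIs of these 12 genes, whose levels are given as a description.

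The samples are 1 brain of an athymic nude mouse without tumor (labelled Nude-Brain, here Nu-NB), 1 PDOX without temozolomide for each of the lines P3, P8, P13, T16, T101, T192 and T233, and 1 further P3 PDOX of a mouse given temozolomide (P3TMZ). In the temozolomide experiment, control mice received saline with DMSO according to the methods. A PDOX is a human GBM grown in the mouse brain from implanted patient-derived organoids, so that its stromal and immune cells are of the mouse, and nude mice lack mature T cells. The host mice were female and carried organoids in the right frontal cortex; their ages are not given in the sources used here. Each PDOX line is 1 sample, and 1 patient gave rise to both T192 and T233. FACS was used to sort Nu-NB and P8, while MACS removed the human cells from the rest. Older gene symbols also appear in the tables of Nu-NB and P8, so that sort and symbol release cannot be told apart. Nothing in the labels says that the samples are more than 1 preparation each, and p-values here measure the spread between these samples.

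The choroid plexus is a fold of the ventricular wall in which a single layer of epithelium, continuous with the ependyma, lies over fenestrated capillaries. Its cells secrete the cerebrospinal fluid by moving sodium, chloride and bicarbonate towards the ventricle, and their tight junctions form the barrier between blood and fluid. They make transthyretin (Ttr), a carrier of thyroxine, and are known for klotho (Kl), the folate receptor Folr1, the potassium channel Kcnj13, the chloride channel protein Clic6, the water channel Aqp1 and the lysophospholipase autotaxin (Enpp2).

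Members were few in each sample and ranged from 12 in T101 to 68 in P13. Total UMIs per file lay between 1294068 and 8410580, and the members of a sample held between 10399 and 483561 UMIs in all. Nu-NB is the shallowest comparison point after T101, since its 16 members held 18725 UMIs together and 1 UMI there equals 53.4 CPM (UMIs of a gene per 1000000 UMIs of the summed members of a sample). Median UMIs per member were 676 for Nu-NB, and ranged over 793 to 5250 among PDOXs, with a median of 2228 over the 7 PDOXs, against 540 in Nu-NB and 513 to 1287 in PDOXs for the other kept barcodes.

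The label was checked against markers of other cells, and it held for part of the members. In Nu-NB, 9 of 12 myeloid markers were at 0 in the members (Csf1r, C1qa, C1qb, C1qc, P2ry12, Tyrobp, Lyz2, Cd74 and Fcer1g), and the 12 markers summed to 320.4 CPM. In the PDOXs all 12 were detected in each sample and summed to 12630 CPM in T16, 20565 CPM at the median and 36363 CPM in P3, far above Nu-NB. The median is the value of P8, where 1 member of 56393 UMIs held 5.33% myeloid markers and the other 49 members summed to 782.6 CPM. Of the 319 members, 165 held UMIs of 1 of the 4 genes of other cells, and in 149 of them that gene was Csf1r, the receptor for colony-stimulating factor 1 of myeloid cells. Cldn5, the tight junction claudin of endothelium, was that gene in 11 members, the ependymal Ccdc153 in 2 and Tmem212 in 3.

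Myeloid markers took at most 0.5% of the UMIs in 124 members, called low-myeloid members here, between 0.5% and 2% in 77, and 2% or more in 118. Low-myeloid members made up 16 of 16 in Nu-NB and 49 of 50 in P8, which are the FACS-sorted samples. They made up 3 of 12 in T101, 2 of 18 in T192, 4 of 53 in T233, 4 of 28 in P3, 7 of 27 in P3TMZ, 12 of 47 in T16 and 27 of 68 in P13. Of the low-myeloid members, 3 in P8 and 4 in P13 had under 5% of their UMIs in Ttr, with a lowest value of 0.440%, so that this range too holds barcodes below every Nu-NB member. The class is therefore referred to below by its rule, as members, and the low-myeloid members by that name.

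The Ttr share, which the rule bears on, is given by myeloid range as a description. The median Ttr share of UMIs in the low-myeloid members of a PDOX lay between 17.1% (P8) and 36.4% (T192), and that at 2% or more of myeloid markers between 0.0603% (P8, 1 member) and 12.2% (T192). Spearman's rho between the Ttr share and the myeloid share over the members of a sample was between -0.78 and -0.11 in the PDOXs and 0.089 in Nu-NB, and the PDOX value nearest to 0 was that of P8 (-0.11). These values are over barcodes that share a library, both shares are of the same UMI sum, and the myeloid markers include Csf1r of the rule. The single P8 member outside the low-myeloid range held 56393 UMIs, of which Ttr took 0.0603% and myeloid markers 5.33%. In T192 the member with the most UMIs (80156) held 0.0187% Ttr and 3.59% myeloid markers. These barcodes reached the minimum of 10 Ttr UMIs with a Ttr share far below that of any Nu-NB member, where the lowest was 11.1%.

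**Figure D1:**
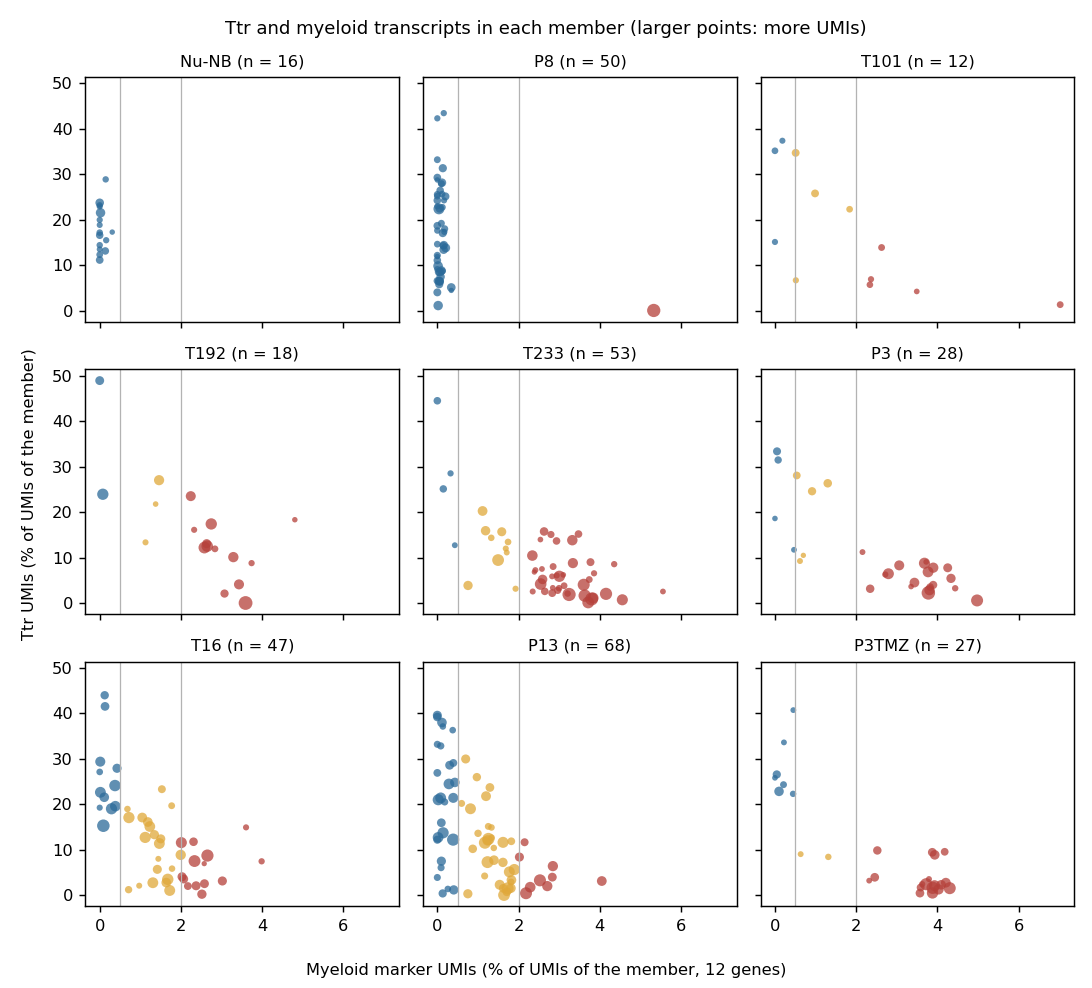
Ttr UMIs (y axis, % of the UMIs of the member) against UMIs of 12 myeloid markers (x axis, %) for each member, 1 panel per sample; point area grows with UMIs, and grey lines mark 0.5% and 2%. All 16 members of Nu-NB lie at the left, whereas in T233 39 of 53 members lie to the right of the 2% line with less Ttr.

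Large barcodes and near-identical barcodes were both frequent. Members over 10000 UMIs numbered 60 (0 in Nu-NB and T101), 57 of these held a gene of other cells, 12 were low-myeloid, and they carried 46.1% to 78.2% of all member UMIs in 6 PDOXs. In T192, 61.1% of members differed by 1 base from another kept barcode, against 10.02% of its other kept barcodes, and in T233 these were 60.4% and 11.5%. In Nu-NB and T101 0 members did. With 1 barcode retained per group linked by such differences, 266 members remained, 10 in T192 and 30 in T233. Across libraries 20 kept barcodes were shared, and in 1 pair, of T101 and P13, both were members. Their part in the results below was not tested beyond the alternatives given.

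The share of members among kept barcodes was compared first. It was 0.857% in Nu-NB (exact Clopper-Pearson 95% interval 0.490 to 1.39%), 2.04% in P8, 0.761% in T101, 0.945% in T192, 5.44% in T233 (4.10 to 7.06%), 3.42% in P3, 2.21% in T16 and 2.33% in P13. Of the 7 PDOXs, 6 lay above Nu-NB and T101 lay below it, and T233 stood highest while T192, from the same patient, was near Nu-NB. The PDOX mean was 2.45% ± 1.59 (SD, n = 7), 1.59 percentage points above Nu-NB, which did not pass a two-sided exact permutation test (p = 0.375; with 1 Nu-NB sample the smallest p possible is 0.125). Intervals cover counting error only, and fewer cells of a type and a different recovery of them cannot be told apart in a share.

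Among low-myeloid members the PDOX mean did not lie above Nu-NB. Low-myeloid members were 0.857% of kept barcodes in Nu-NB and 2.002% in P8, 0.190% in T101, 0.105% in T192, 0.411% in T233, 0.489% in P3, 0.564% in T16 and 0.926% in P13. Of the PDOXs, P8 and P13 then lay above Nu-NB, and the PDOX mean minus Nu-NB was -0.187 percentage points (exact permutation p = 0.875). That value moved most without P8, to -0.409 points, and was -0.107 without T101 and -0.0927 without T192. Without any gene of other cells the difference was 0.237 points (exact permutation p = 0.875).

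**Figure D2:**
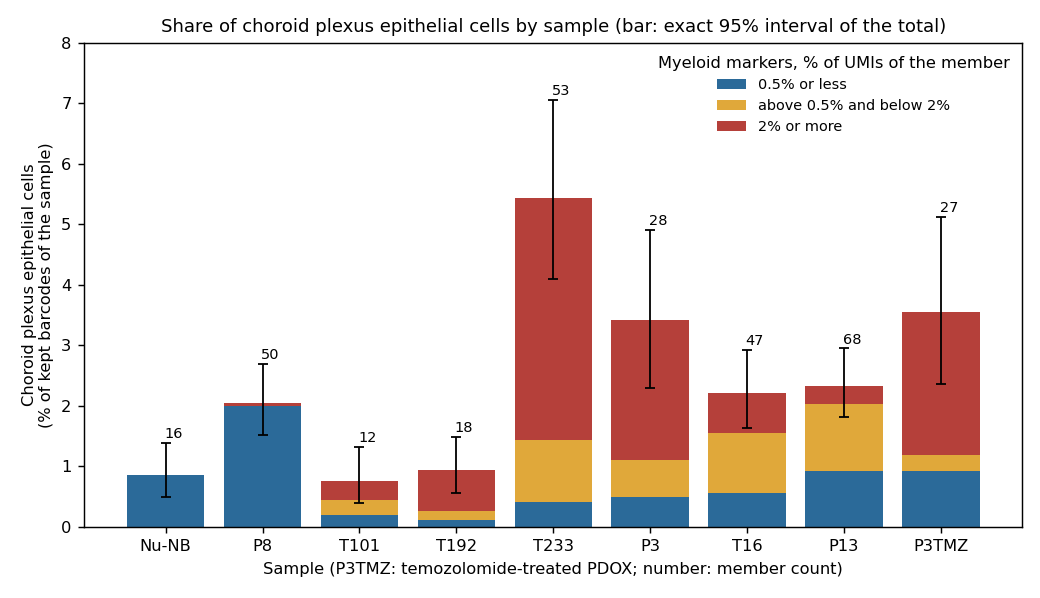
Share of kept barcodes that met the rule in each sample (y axis, %), stacked by the share of myeloid marker UMIs in the member; whiskers are exact 95% intervals of the total, and the numbers above are member counts. T233 is highest at 5.44%, and the blue low-myeloid portion is largest in P8 (2.002%).

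The 8 choroid plexus genes of the rule had the following levels, given without a test. Ttr stood at 188571 CPM in the members of Nu-NB and at 45996 (T233), 97134 (median) and 201750 CPM (T101) in the PDOXs. Enpp2, the autotaxin gene, was at 31188 CPM in Nu-NB and 4204 to 13463 CPM in PDOXs, so that no PDOX reached Nu-NB. In low-myeloid members Enpp2 still ranged from 16020 to 21031 CPM over the PDOXs, whereas Ttr, at 154610 to 314183 CPM, overlapped Nu-NB.

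The channel and receptor genes were far lower in UMIs and were seen in part of the members. Folr1 had 694.3 CPM in Nu-NB and 103.9 to 642.0 CPM in PDOXs (median 340.7), with UMIs in 166 of 319 members. Kl had 1015 CPM in Nu-NB and 163.5 to 509.5 CPM in PDOXs, and was seen in 173 members. Kcnj13 had 801.1 CPM in Nu-NB and 136.7 to 789.2 CPM in PDOXs, and was seen in 153. For these 3 genes and for Clic6 (801.1 CPM against 62.3 to 480.8 CPM) every PDOX lay below Nu-NB. In low-myeloid members this held for Clic6 alone of the 4 genes (0 to 696.8 CPM in PDOXs). There Folr1 spanned 0 to 1539 CPM, Kcnj13 498.9 to 1646 CPM and Kl 0 to 1247 CPM over the PDOXs, on both sides of Nu-NB. However, T101, T192, T233 and P3 had only 3, 2, 4 and 4 such members. The values of 0 and the highest of Folr1 and Kl were from T101, T233 and P3. In P8, T16 and P13 Folr1 was at 525.3, 1360 and 766.7 CPM, and Kcnj13 at 653.9, 1646 and 787.7 CPM. Kl was at 696.8, 751.5 and 759.8 CPM in that order, below Nu-NB in each.

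1500015O10Rik, which encodes the secreted augurin and is now named Ecrg4, overlapped between Nu-NB (2029 CPM) and the PDOXs (677.9 to 2116 CPM). Aqp1 was rarely captured, with 56 UMIs in 40 members. Thinned to 500 UMIs per barcode, Folr1 was seen in 33.3% of Nu-NB members and in 14.3 to 27.3% of PDOX members, and in barcodes with Csf1r, which should lack it, in 0% and 0 to 1.71%. Of the members, 15 of 16 in Nu-NB and 11 (T101) to 68 (P13) in PDOXs had that depth. Unthinned, those shares were 43.8% of Nu-NB members, 41.5 to 68.1% of PDOX members and 0 to 5.10% of the barcodes with Csf1r. Median UMIs of the barcodes with Csf1r were 586 in Nu-NB and 815 to 2397 in PDOXs. Near the edge of the rule, the 16 members with 10 to 15 Ttr UMIs had a median Ttr share of 2.12% and the 14 barcodes with 5 to 9 Ttr UMIs that failed on this count alone had 1.57%. The 71 barcodes left out for 2 or more genes of other cells had a median of 13768 UMIs, against 5261 in the 165 members with 1 such gene.

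Genes outside the rule were then ranked by the log2 ratio of CPM in members to CPM in the other kept barcodes of the same sample, as a description. Of 6956 genes with at least 30 UMIs in members and UMIs in at least 5 samples, 148, the 8 of the rule included, were at least 4-fold higher by the median over samples (2.13%). In every sample 28 were so, 7 of the rule included (0.403%), and 28 were at least 4-fold lower by the median (0.403%). The 20 highest were Cox8b, Tmem72, Kcne2, Htr2c, Sostdc1, Prlr, Ins2, Steap1, Gm20501, Cldn2, Myo5b, Vat1l, Frmpd4, Wfdc2, Calml4, Fam132a, Car12, Npr3, Otx2 and Krt18, with median log2 ratios from 5.11 to 4.13. Of the fixed list of 22 other choroid plexus epithelial genes, 18 could be ranked and 18 of these were at least 4-fold higher, with a median log2 ratio of 3.87 beside 0.03 over all ranked genes.

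**Figure D3:**
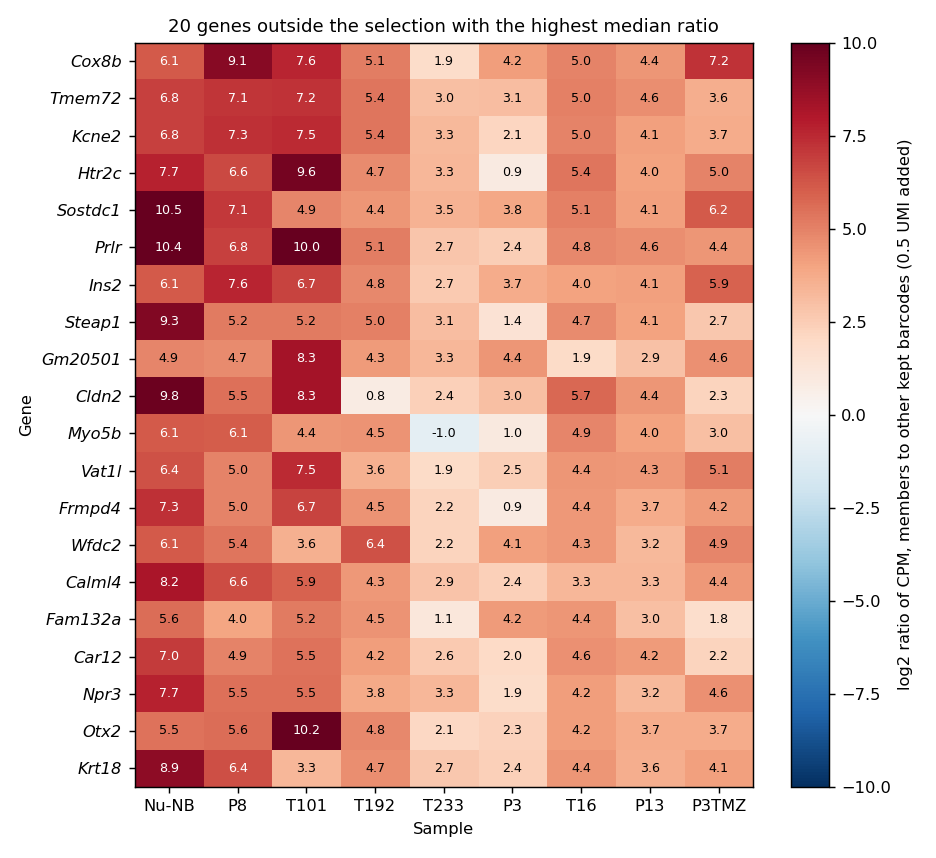
log2 ratio of CPM in members to CPM in other kept barcodes (colour and number, 0.5 UMI added) for the 20 leading genes outside the rule (rows) in each sample (columns). By the median over the 20 genes, ratios are largest in Nu-NB, T101 and P8 and smallest in P3 and T233; Myo5b in T233 is the single negative value (-0.96).

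Of the 6 listed transcription factors, 4 could be ranked and 3 were at least 4-fold higher (Otx2, Msx1 and Foxj1), of which Otx2 was among the 20 highest. Otx2, a homeobox factor needed for choroid plexus development, lies on chromosome 14 from 48657677 to 48673819 (GRCm38, minus strand) and overlaps Otx2os1 on the other strand and Gm49154 on its own, so that reads of these genes could be shared. It had 640.9 CPM in Nu-NB, 608.0 in P8, 480.8 in T101, 192.1 in T192, 59.96 in T233, 98.4 in P3, 217.9 in T16, 244.0 in P13 and 105.0 in P3TMZ. Over all members its level was thus high in Nu-NB, P8 and T101 and lower elsewhere. In low-myeloid members it was at 640.9 CPM in Nu-NB, 975.6 in P8, 593.7 in P3TMZ, 453.1 in P13 and 331.0 in T16, so that P3TMZ lay near Nu-NB and P8 above it. Msx1, a homeobox factor of dorsal midline tissue, had 267.0 CPM in Nu-NB and 49.2 to 150.6 CPM in PDOXs. Hes1, a Notch target of many neural cells, was not raised in members (median log2 ratio -0.78).

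Receptors came next. Prlr, the prolactin receptor, is the most abundant of the 20 in UMIs (1377 in 184 members). It had 2617 CPM in Nu-NB and 487.7 in P8, 1346 in T101, 399.8 in T192, 294.3 in T233, 224.2 in P3, 1628 in T16, 914.1 in P13 and 123.5 in P3TMZ. Nu-NB was highest and the PDOXs spread widely. Htr2c, the serotonin receptor 2C gene, was at 53.4 CPM in Nu-NB, which is 1 UMI, and at 60.1 to 321.0 CPM in PDOXs. Its UMIs were in 104 members (32.6%) and in 0.451% of the other kept barcodes. Npr3, the clearance receptor of natriuretic peptides, was at 213.6 CPM in Nu-NB and 13.6 to 100.2 CPM in PDOXs.

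Genes of fluid secretion were described as a group. Of the 12 listed genes of ion and bicarbonate transport, 8 were at least 4-fold higher in members by the median (2.13% over all ranked genes). Kcne2, a potassium channel subunit, had a median log2 ratio of 4.97 and stood at 106.8 CPM in Nu-NB and 60.1 to 192.3 CPM in PDOXs. In low-myeloid members Kcne2 was at 223.1 to 1031 CPM over the PDOXs, all above Nu-NB, whose value is 2 UMIs. Of these, P8, T16 and P13 were at 268.0, 295.2 and 223.1 CPM. T101, T192, T233 and P3 had only 3, 2, 4 and 4 such members, so that the upper end rests on few barcodes. The carbonic anhydrase gene Car12 had 320.4 CPM in Nu-NB and 93.5 to 288.5 CPM in PDOXs. Slc4a5 and Slc4a10, sodium bicarbonate carriers, had median log2 ratios of 3.58 and 3.29. Of the sodium pump, Atp1b1 (beta subunit) had 1226 UMIs in 211 members and a ratio of 2.40, and its regulator Fxyd1 one of 2.23. The kinase gene Wnk1 (0.01), which many brain cells express, was close to the other barcodes.

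Secreted proteins divided. Igf2, insulin-like growth factor 2, had 2190 CPM in Nu-NB and 367.9 (T233), 865.5 (median) and 1752 CPM (T16) in PDOXs, and its binding protein Igfbp2 had 3311 CPM in Nu-NB and 453.8 to 1773 CPM in PDOXs. Both were at least 4-fold higher in members in every sample. The other 10 genes of that list were not 4-fold higher by the median. Apoe and Cst3, which glia and myeloid cells express strongly, had ratios of 0.21 and -0.17.

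Ins2, an insulin gene next to Igf2 on chromosome 7 (142678656 to 142743381, minus strand), had UMIs in 58 members (18.2%) and in 31 of the other kept barcodes (0.206%). It was at 53.4 CPM in Nu-NB, 67.9 CPM in P3TMZ, 26.7 CPM at the PDOX median and 73.6 CPM in T16, with 0 UMIs in T101, whose 12 members held few UMIs. In low-myeloid members it was at 53.4 CPM in Nu-NB, 42.9 in P8, 152.1 in T16, 104.6 in P13 and 395.8 in P3TMZ (4 UMIs at 1 UMI per 98.95 CPM). Cox8b, a cytochrome c oxidase subunit known from heart, muscle and brown fat, led the ranking with a median log2 ratio of 5.11. It had 53.4 CPM in Nu-NB, 240.5 in P8, 384.7 in T101 and 19.1 to 144.3 CPM in the other PDOXs, with UMIs in 63 members. Of the 23 nuclear respiratory chain genes fixed as a list, which did not include Cox8b, 0 were 4-fold higher, and their median log2 ratio was 0.57.

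Epithelial structure was represented by Krt18, a keratin of simple epithelia, and by Cldn2, the pore-forming claudin of leaky epithelia. Krt18 had 534.0 CPM in Nu-NB and 0 to 193.8 CPM in PDOXs. Cldn2 had 320.4 CPM in Nu-NB and 0 to 135.5 CPM in PDOXs. Of the 12 junction genes, 5 could be ranked and Cldn2 was the 1 that was at least 4-fold higher, while the cadherin gene Cdh2 was more than 4-fold lower (-2.27). Cdh2 had 30 UMIs in the members of 5 samples, the least that could be ranked, and its ratio was -0.34 in low-myeloid members. Lbp, the lipopolysaccharide-binding protein gene, was the 1 of 6 ranked acute phase and NF-kB genes at least 4-fold higher (median log2 ratio 3.81, 213.6 CPM in Nu-NB and 49.1 to 147.2 CPM in PDOXs). The retinol dehydrogenase gene Rdh5 had a ratio of 2.22.

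Choroid plexus genes outside the rule were then summed within the myeloid ranges. The 28 genes of the lists of transcription factors and other choroid plexus epithelial genes summed to 6984 to 14366 CPM in the low-myeloid members of the 9 samples. They summed to 4413 to 9273 CPM in the middle range of 7 samples, and to 70.9 to 3358 CPM at 2% or more of myeloid markers in 8 samples. Low-myeloid members of T16 (12945 CPM) and P13 (11355 CPM) were close to those of P8 (13068 CPM) and Nu-NB (14366 CPM), while T233 (7694 CPM) and P3 (6984 CPM), with 4 such members each, were lower. Within P3 the middle range was above the low range (9273 against 6984 CPM), and in T233 they were close (7306 against 7694 CPM). In low-myeloid members 12 of the 20 leading genes remained among the first 20.

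Markers of ciliated ependymal cells, the neighbours of this epithelium, were partly shared. Their 12 genes summed to 1549 CPM in Nu-NB members and 191.4 to 621.4 CPM in PDOX members, with Foxj1 and Tppp3 at 0 in Nu-NB. Ccdc153 and Tmem212 in this list, Cldn5 among the endothelial and Csf1r among the myeloid markers belong to the rule, which itself limited them in members. Of the 7 ranked genes of that list, 4 were at least 4-fold higher in members, beside 2.13% of all ranked genes. Endothelial markers were at 213.6 CPM in Nu-NB members, from 1 of 8 genes, and 96.2 to 388.8 CPM in PDOXs. Astrocyte markers were at 480.6 CPM and 71.1 to 2585 CPM, highest in P13 and T16. Mural markers were at 0 in Nu-NB and at 26.7 to 938.9 CPM in PDOXs.

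The members of 7 PDOXs were next set against the Nu-NB members on summed UMIs with the quasi-likelihood test of edgeR, where the single Nu-NB sample was assumed to vary like the PDOXs. Of 10090 genes tested, 1 passed an FDR of 0.01 and a 2-fold change, and it was lower in PDOXs (0.00991%), while 0 were higher (0%). At an unadjusted p under 0.05 there were 771 genes (7.64%), 688 of them higher in PDOXs. DESeq2 called 1 gene and had 434 at an unadjusted p under 0.05. The direction of the genes at an unadjusted p under 0.05 depended on the scaling, and with library totals in place of TMM more were lower than higher. In the Nu-NB members 6069 of the tested genes (60.1%) had 0 UMIs, so that the test had little depth on that side, and a change of 8-fold simulated in 200 genes was recovered in 0 of them by edgeR, with 27.0% recovered at 32-fold.

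The gene that passed was Sez6, a membrane protein gene known from neurons, on chromosome 11 (77930800 to 77979048). It had 17 UMIs in 5 of 16 members of Nu-NB (907.9 CPM, 9 of the UMIs in 1 barcode), 6 in P8, 0 in T101, 3 in T192, 1 in T233, 1 in P3, 2 in T16 and 0 in P13. All PDOXs lay below Nu-NB, with at most 40.1 CPM. The log2 fold change was -5.78 (SE 0.85, adjusted p = 0.00419 by edgeR, and 0.00678 by DESeq2). In the other kept barcodes Sez6 was at 51.1 CPM in Nu-NB and 2.96 to 20.2 CPM in PDOXs. The call was lost without T101 (adjusted p = 0.263), which left the count at 0 genes, and in low-myeloid members (adjusted p = 0.642).

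Choroid plexus genes outside the rule did not pass. Of the 18 tested genes of the list of other choroid plexus epithelial genes, 12 were lower in every PDOX than in Nu-NB, beside 19.3% of all tested genes, and 2 were higher in every PDOX, beside 13%. Their median log2 fold change was -0.61 after TMM scaling and -1.59 as a ratio of CPM with Nu-NB set to at least 3 UMIs, where the medians over all tested genes were 4.03 and -2.57. In low-myeloid members of P8, T16 and P13 it was 0.27, below the median of 0.68 over all genes tested in that fit. Prlr (log2 fold change -1.09, SE 0.81, adjusted p = 0.679) and Calml4, a calmodulin-like gene (-1.55, SE 0.77, adjusted p = 0.662), were lower in 7 of 7 PDOXs without passing. Slco1c1, the transporter of thyroxine, was at 1389 CPM in Nu-NB and 76.5 to 673.1 CPM in PDOXs (-2.01, SE 0.66, adjusted p = 0.607), and in the other kept barcodes of Nu-NB it was at 1060 CPM.

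Myeloid markers were higher in the summed members of each PDOX than in those of Nu-NB, in P8 mainly through 1 member. The 12 markers were at 20565 CPM over the 50 members of P8 and 782.6 CPM over its 49 low-myeloid members, against 320.4 CPM in Nu-NB. The 11 besides Csf1r, which the rule used, lay above Nu-NB in each of the 7 PDOXs, and 11 reached an unadjusted p under 0.05, beside 7.64% of all tested genes, while 0 passed the threshold (C1qa, adjusted p = 0.465 by edgeR). C1qa, a complement subunit of microglia and macrophages, was at 0 in Nu-NB and at 971.8 to 2903 CPM in PDOXs, at least 11.3-fold higher on the mean against 3 UMIs in Nu-NB. Tyrobp was at least 14.0-fold higher and Lyz2 at least 12.7-fold. Of 15 immediate early genes, 13 were at 0 in Nu-NB members, beside 60.1% of all tested genes, 8 were higher in every PDOX, beside 13%, and 1 was lower in every PDOX. Of 9 MHC class I genes, 6 were higher in every PDOX. None of either list passed (0 by edgeR), with 9 and 6 genes at an unadjusted p under 0.05, beside 7.64% of all tested genes. B2m, the light chain of MHC class I, was at 106.8 CPM in Nu-NB and 1864 to 8863 CPM in PDOXs. In all members these lists were no higher than in the other kept barcodes of the same sample, with median log2 ratios of -0.16 and -0.27. In low-myeloid members the ratios were -1.54 and -1.23. There Jun, Junb and Egr1, the immediate early genes with the most UMIs, were at 213.6, 0 and 0 CPM in Nu-NB and 21.4, 0 and 10.7 CPM in P8. They were at 348.9, 116.3 and 241.5 CPM in T16 and 411.3, 20.9 and 209.1 CPM in P13. The part of myeloid transcripts in the differences between PDOX and Nu-NB members was not tested.

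Among genes with a mean of at least 200 CPM the median log2 fold change was 1.06 after TMM scaling, 0.67 with the RLE factors and 0.23 with library totals, so that 74.8%, 64.6% and 54.5% of these 659 genes were higher in PDOXs. Values after TMM are therefore to be read relative to 1.06.

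Low-myeloid members gave the comparison with few myeloid transcripts, in Nu-NB (16 members), P8 (49), T16 (12) and P13 (27). Choroid plexus genes differed in how far apart the samples lay. Igf2 was at 2190 CPM in Nu-NB, 1855 in P8, 3077 in T16 and 2175 in P13, and Msx1 was at 267.0, 235.8, 259.4 and 292.8 CPM in that order. Prlr was at 2617, 782.6, 3140 and 1750 CPM, with Nu-NB inside the range of the PDOXs. Calml4 was at 2563 CPM in Nu-NB, 2015 in P8, 894.6 in T16 and 1164 in P13, and Slco1c1 was at 1389 CPM in Nu-NB and 364.5, 402.6 and 390.3 CPM in P8, T16 and P13, so that Nu-NB was above all 3 PDOXs for both. Against the other kept barcodes Slco1c1 had a median log2 ratio of -0.94 in all members and 0.42 in low-myeloid members. Htr2c was at 53.4 CPM in Nu-NB and at 203.7, 644.1 and 411.3 CPM in P8, T16 and P13, all above it, although the Nu-NB value is 1 UMI. B2m was at 106.8 CPM in Nu-NB and 289.5, 554.7 and 1248 CPM in P8, T16 and P13, and H2-K1 at 53.4, 107.2, 331.0 and 571.6 CPM. T16 and P13 thus stood above P8, and their summed myeloid markers in these same members were 1888 and 1980 CPM, against 782.6 CPM in P8 and 320.4 CPM in Nu-NB. Their 8 endothelial markers summed to 152.1 CPM in T16 and 711.0 CPM in P13, against 10.7 CPM in P8 and 213.6 CPM in Nu-NB, and their 8 astrocyte markers to 286.3 and 1987 CPM, against 310.9 and 480.6 CPM. The part of these cells' transcripts in the MHC class I values was not tested. Of 4679 genes tested in these members, 0 passed by edgeR, and 207 had an unadjusted p under 0.05.

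**Figure D4:**
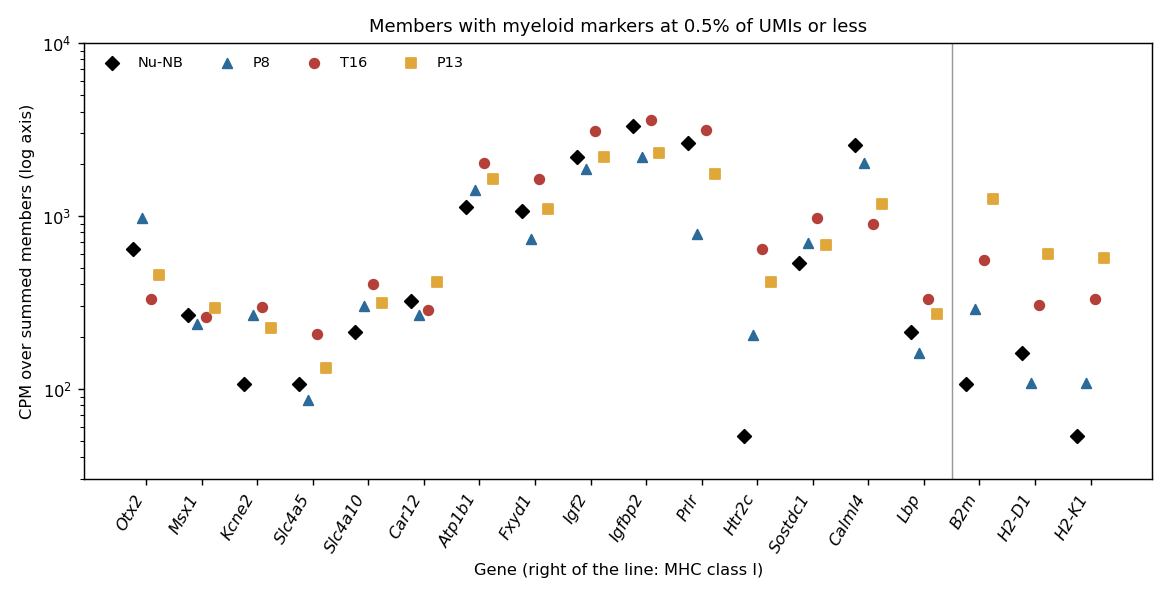
CPM over the summed low-myeloid members (y axis, log scale) of genes outside the rule in Nu-NB, P8, T16 and P13, the samples of this comparison; genes right of the vertical line belong to MHC class I. Msx1 spans 235.8 to 292.8 CPM, whereas Htr2c spans 53.4 to 644.1 CPM and B2m is at 106.8 CPM in Nu-NB and 1248 CPM in P13.

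Ttr UMIs were also found outside the members. In the other kept barcodes Ttr was at 248.0 CPM in Nu-NB and at 424.3 (T101), 4830 (median) and 5649 CPM (T233) in PDOXs. Of those barcodes, 9.02% in Nu-NB and 12.8 to 65.9% in PDOXs held a Ttr UMI. Barcodes with Csf1r, which should lack Ttr, held it in 8.49% of cases in Nu-NB and 15.2 to 69.5% in PDOXs, and barcodes with 3 or more endothelial markers in 14.3% and 10.7 to 69.7%. Thinned to 500 UMIs, the share among barcodes with Csf1r was 5.70% in Nu-NB and 12 to 35.6% in PDOXs. Members held 91.7% of the Ttr UMIs of kept barcodes in Nu-NB and 53.4 to 86.6% in PDOXs. For every 100 Ttr UMIs there were 16.5 Enpp2 UMIs in Nu-NB members and 6.20 to 12.3 in PDOX members, and in barcodes with Csf1r there were 37.5 in Nu-NB (18 Enpp2 and 48 Ttr UMIs) and 7.74 to 14.3 in PDOXs.

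**Figure D5:**
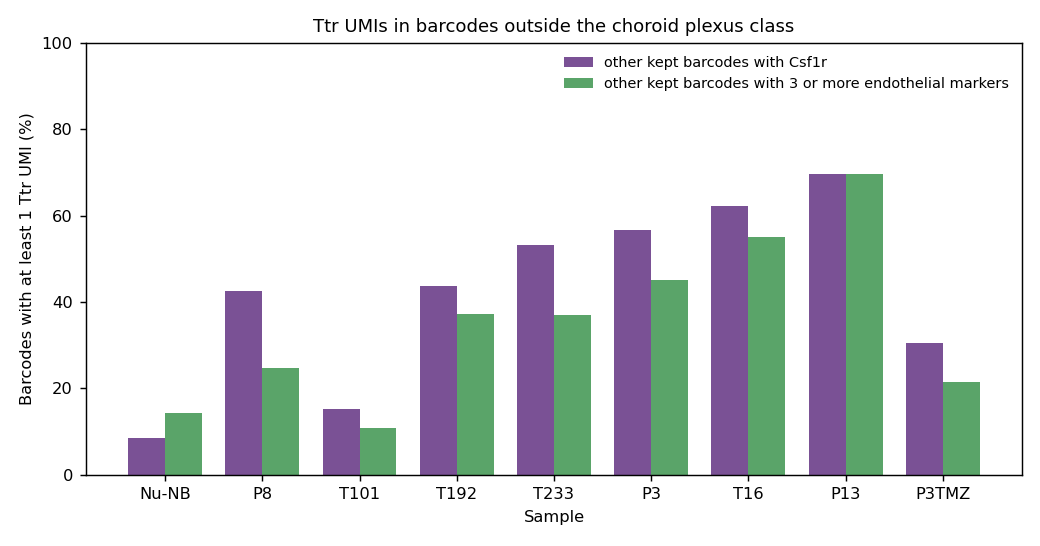
Share of kept barcodes outside the members that held at least 1 Ttr UMI (y axis, %), for barcodes with Csf1r and barcodes with 3 or more endothelial markers in each sample. Both stand at or below 14.3% in Nu-NB, and P13 is highest at 69.5% and 69.7%.

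P3TMZ and P3 were set side by side, with 1 sample each and no test. Members were 3.55% of kept barcodes in P3TMZ (27 of 760, exact interval 2.35 to 5.13%) and 3.42% in P3 (28 of 818, 2.29 to 4.91%), and these intervals overlap widely. Of 2741 genes with at least 20 UMIs in both together, 172 were at least 2-fold higher in P3TMZ (6.28%) and 199 at least 2-fold lower (7.26%). Among 14 other choroid plexus epithelial genes 1 was higher and 1 lower, and among 12 ion and bicarbonate transport genes 8 could be compared, with 0 higher and 2 lower. Of 14 immediate early genes 4 were at least 2-fold lower, among them Atf3, a stress-induced transcription factor, at 247.0 CPM in P3TMZ (exact Poisson interval 176.5 to 336.4) and 677.9 CPM in P3 (563.9 to 808.3). Ttr was at 39003 CPM in P3TMZ and 54176 CPM in P3. The summed myeloid markers were at 36397 and 36363 CPM, so that members of both samples held them at like levels. Markers of other cells differed, with 2 of 2 mural genes lower in P3TMZ (Rgs5 at 61.8 against 360.8 CPM, and Acta2 at 0 against 164.0 CPM) and the fibroblast gene Dcn at 0 against 114.8 CPM. Of 3 cell cycle genes 2 were higher, Top2a at 191.4 against 38.3 CPM and Mki67 at 92.6 against 32.8 CPM. Their part in the other differences was not tested.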

How the data were processed

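Tables of mouse cells from 9 Drop-seq samples were analysed. The authors deposited raw UMI counts per gene and barcode, after mapping reads to the human g38 and mouse mm10 genomes and separating human from mouse cells; the submitters' processing notes name STAR and bcl2fastq 2.0. Members and gene lists were chosen with earlier results of these data known. Kept barcodes had at least 200 genes and at most 30% mitochondrial UMIs. Doublets were not removed in the main result; leaving out the 5% highest scrublet scores (scanpy 1.11.5) was an alternative. UMIs were summed per sample (at least 5 members), genes listed in every file with at least 10 summed UMIs were tested by edgeR 4.0.16 (quasi-likelihood, TMM; Benjamini-Hochberg) and, as an alternative, by DESeq2 1.42.0 (R 4.3.3); calls needed an FDR of at most 0.01 and a log2 change of at least 1, and both tools were tested on simulated data. Shares were compared by an exact permutation test over samples, with exact binomial intervals of 95%. Ratios of members to other barcodes had 0.5 UMI added. Named genes were those of the rule, of the fixed lists with at least 20 UMIs, the 20 highest ratios, and genes past the threshold. Positions are from GENCODE vM21 (GRCm38). Myeloid ranges, merged barcodes and the limit of 10000 UMIs were chosen after seeing the data. T347 and T470 were not analysed here.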

Additional observations from a re-analysis of the deposited data

Results flagged for a closer look

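Of 26 quantities examined over the 7 PDOXs, which leave out the levels of the rule's genes in members, 1 had a sample far from the other 6, and chance alone gives such a gap in about 1 of 20 groups. Frmpd4, which encodes a synaptic scaffold protein, was at 96.2 CPM in the members of T101 against 23.6 CPM in the next PDOX. The 12 members of T101 held 10399 UMIs, so that 96.2 CPM there is 1 UMI.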

How the results depend on the processing

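No paired analysis was possible because the labels give no replicate numbers shared between Nu-NB and the PDOXs. The difference in share (1.59 percentage points) stayed positive under 12 of 13 alternatives, from 0.237 points with 0 genes of other cells to 2.64 points at 500 genes (0.543 among barcodes without Csf1r and 0.890 at 4 rule genes), and turned to -0.187 points in low-myeloid members, an alternative added after seeing the data (-0.409 to -0.0927 points without 1 PDOX each); without 1 PDOX each it lay between 1.10 and 1.88 points, and the exact p lay between 0.286 and 0.875. The count of genes past the threshold was 1, and it was 2 without a filter on low counts, 2 without the highest scrublet scores, 2 with 0 genes of other cells, 0 with at least 30 summed UMIs and 0 in low-myeloid members. Leaving out 1 PDOX each gave 0 (T101) to 4 genes (P8). The second gene where 2 were called was Vps8 (adjusted p = 0.0452 with all PDOXs), named after its values were seen. Sez6 was lower in PDOXs under all 20 alternatives (log2 fold change -6.65 to -4.81) and lost its call under 3 of them, with adjusted p of 0.0296 at 30 summed UMIs, 0.263 without T101 and 0.642 in low-myeloid members. Genes at least 4-fold higher in members numbered 148, and 267 of 1823 in low-myeloid members, with 18, 19 and 12 of the 20 leading genes shared at 2 UMIs added, at 20 Ttr UMIs and in low-myeloid members. The difference in share between P3TMZ and P3 was 0.130 points and 0.432 points in low-myeloid members. The minimum of 10 or of 3 members per sample changed nothing, since each sample had at least 12. Depth limits the comparison with Nu-NB, where genes under 160.2 CPM (3 UMIs) cannot be told from 0.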
